A study of Rattus with 18 samples.

Results

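Gene expression at day 3 was compared with that at day 1 in infarcted rat hearts whose agent label is iECM, an infusible extracellular matrix. Samples were taken by their agent and time point labels, which gave 5 iECM hearts at day 3 and 5 at day 1, 10 of the 18 samples in the series. The other 8 carry the agent label control, 4 at each day, and stand beside them here only as a comparison. All 18 are Sprague-Dawley hearts with an infarction of 35 min, and total RNA of the left ventricular free wall was read on a hybridization panel that counts barcoded probes without amplification. The time counts days after the infusion. The treatment text of the control samples also names an iECM infusion, so what those hearts received is not settled by the labels. Each sample is called a heart here, but the labels do not say that each came from its own animal, so the p-values cover sample-to-sample spread, which may be technical.

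An infarct passes through an early inflammatory phase, in which neutrophils and then monocytes enter and clear dead muscle, and a later repair phase, in which macrophages, fibroblasts and new vessels build granulation tissue. In tissue RNA, fewer cells of a type and less RNA per cell cannot be told apart. The deposited files do not pair the numbered rows with gene names, so no row could be assigned to a gene or a cell type, and the labelled tissue could not be checked against marker genes. The results therefore describe how many probes changed, by how much, how evenly up and down, and how far this rests on the way hearts are scaled to each other.

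Of the rows in the value table, 380 were taken as gene probes. Of the others, 6 behave as positive controls, probes for RNA added in fixed amounts, and 8 as negative controls, probes with no target. The summed gene count averaged 1417928 ± 229204 (SD, n = 5) in day 3 iECM hearts and 1076812 ± 211962 (SD, n = 5) in day 1 iECM hearts. It ran from 1101407 to 1664632 counts at day 3 and from 817309 to 1396710 counts at day 1, so the days overlapped. The difference of 341116 counts did not pass an exact two-sided permutation test (p = 0.0556, adjusted p = 0.111 over 6 single-value tests), for which 5 hearts against 5 allow no p below 0.00794. The positive-control rows went the other way and did not overlap. They summed to 61903, 39543, 56920, 56296 and 47454 counts in day 3 iECM hearts, against 70882, 80536, 73041, 86710 and 74987 counts in day 1 iECM hearts. The difference was -24808 counts (exact two-sided permutation p = 0.00794, adjusted p = 0.0476). With 1 heart left out the smallest p the test allows is 0.0159, and in 9 of 10 cases the adjusted p was 0.0952.

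**Figure D1:**
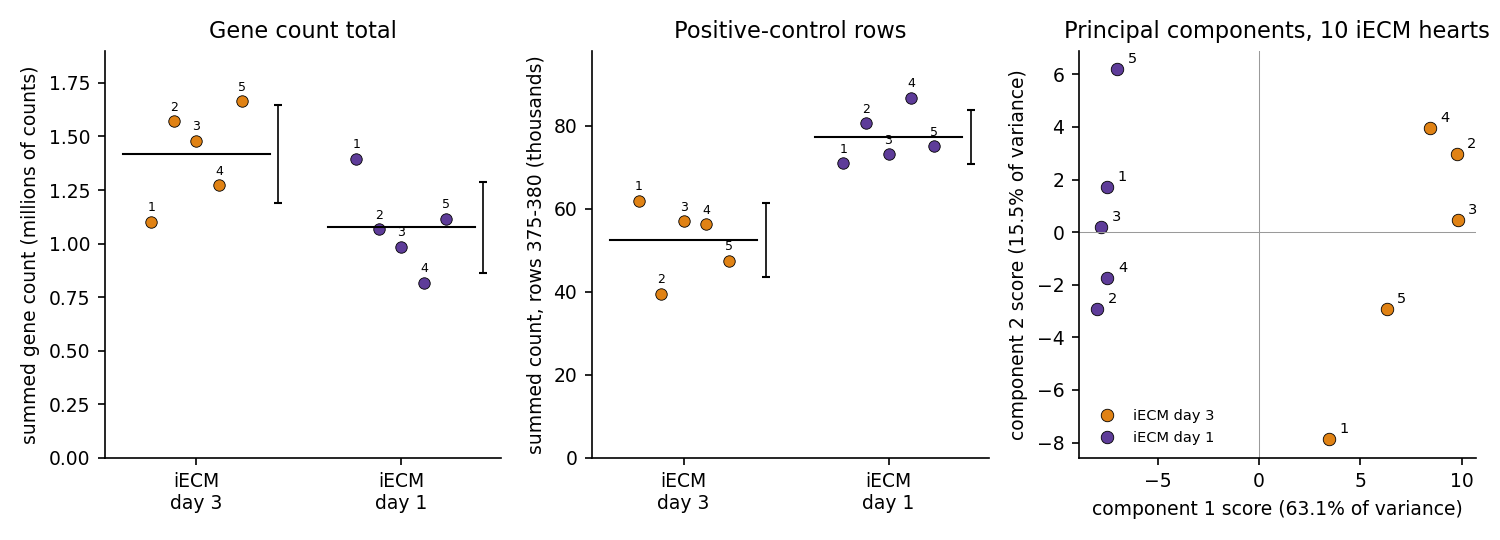
Left and middle: summed gene count and summed count of the 6 positive-control rows, on linear axes, in each iECM heart, with the replicate number, the mean (line) and the SD (bar, n = 5). Right: scores of the 10 hearts on the first 2 principal components of log2 CPM, where all 5 day 1 hearts lie left of 0 and all 5 day 3 hearts right of it, with day 3 replicate 1 lowest at -7.88 on the second component.

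The negative-control rows summed to 104 ± 10.1 (SD, n = 5) in day 3 iECM hearts, against 114 ± 4.95 (SD, n = 5) in day 1 iECM hearts (exact permutation p = 0.0952, adjusted p = 0.124). A gene probe was taken as above background in a heart when its count exceeded the mean plus 2 SD of these rows there. By that measure 315 ± 8.79 probes were above background in day 3 iECM hearts and 304 ± 7.43 in day 1 iECM hearts (SD, n = 5 each). This difference did not pass the test either (exact permutation p = 0.103, adjusted p = 0.124). Of all probes, the 10 with the highest mean level took 49.8% ± 4.34 of the gene count in day 3 iECM hearts and 49.4% ± 2.39 in day 1 iECM hearts (SD, n = 5 each; exact permutation p = 0.865, adjusted p = 0.865). The difference turned to -1.23 percentage points without day 3 replicate 1, to -0.12 without day 3 replicate 5 and to -0.54 without day 1 replicate 5.

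A day 3 heart lay at the end of its group on several measures. None of the component scores, count sums or shares given in this paragraph put it past the outlier limit used further on. On principal components of the 10 iECM hearts, the first carried 63.1% of the variance, and the days lay at opposite ends of it. Day 3 hearts scored 3.46, 9.77, 9.80, 8.45 and 6.31 on it, replicates 1 to 5, and day 1 hearts -7.52, -8.00, -7.79, -7.48 and -7.00. Replicate 1 of day 3 lay nearest to the day 1 hearts. It also had the lowest gene count total of its group, the highest share in the 10 top probes, at 56.3%, and the highest positive-control sum. On the second component, with 15.5% of the variance, it lay at one end, at -7.88, and day 1 replicate 5 at the other, at 6.19. The Pearson correlation of log2 CPM between day 3 hearts, taken over probes that share libraries and are not replicates, had a median of 0.990 over 10 pairs and a lowest value of 0.972, in a pair with replicate 1. Between days the median was 0.954 over 25 pairs. The counts of called and of separated probes are therefore given with and without that heart.

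Of 371 probes that passed a filter on low counts, 154 changed between day 3 and day 1 in iECM hearts by edgeR's quasi-likelihood test at a Benjamini-Hochberg adjusted p under 0.05, which is 41.5% of those tested. Of these, 72 rose (19.4% of those tested) and 82 fell (22.1%), so rising probes made up 46.8% of the calls. Without day 3 replicate 1, 85 rose and 108 fell. Of the 154 probes, 150 were called in the same direction without that heart, 4 were lost, and 42 of the other 217 were called. Leaving out any other heart of the 18 gave between 131 and 167 called probes, and no probe called with all hearts was called in the opposite direction.

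Among called probes the rises were larger than the falls under the scaling of the main fit. Across the 9 scalings given further on, the median log2 fold change of all probes ran from -0.37 to 1.02. The sizes given here hold for the main fit only. The probes that rose had a median log2 fold change of 0.94, or 1.92-fold, and those that fell one of -0.62, or 1.54-fold. Without day 3 replicate 1 the same 72 and 82 probes had medians of 0.98 and -0.74. Over all 371 probes the log2 fold change ran from -3.30 to 3.53, with quartiles at -0.41 and 0.32 and a median of -0.09. A rise of over 2-fold was seen in 34 called probes and a fall of over 2-fold in 25. Over 4-fold, 10 rose and 3 fell. At the small end the order turned, with 12 of the rising and 39 of the falling probes under 1.5-fold. The smallest called change was 0.33 among rising probes and -0.22 among falling ones, on the log2 scale.

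**Figure D2:**
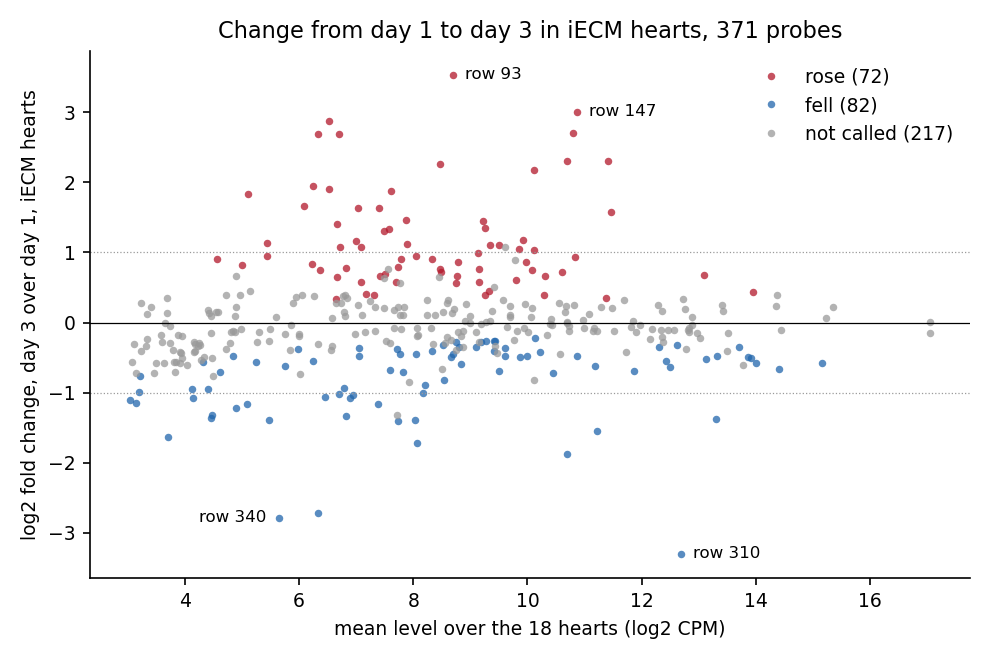
Log2 fold change of each of 371 probes in iECM hearts, day 3 over day 1 (vertical), against its mean level over the 18 hearts in log2 CPM (horizontal), with the 2-fold limits dotted. Of the called probes, 34 of 72 that rose and 25 of 82 that fell lie past these limits, and most of the 217 not called lie within the limits.

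Rows are named only where they had the largest change in either direction among called probes whose 2 groups did not overlap, 2 of each. Levels are CPM, the count divided by the library size on a common scale after adjustment by the trimmed mean of M-values (TMM). Row 93 rose most, with 851, 1475, 1904, 2024 and 1369 CPM in day 3 iECM hearts, against 110, 143, 112, 158 and 135 CPM in day 1 iECM hearts. The lowest day 3 heart was thus far above the highest day 1 heart. Its log2 fold change was 3.53 (SE 0.27, edgeR adjusted p = 1.97e-08), which is 11.6-fold with a 95% interval of 7.85 to 17.1.

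Row 147 had 2789, 6544, 5488, 7167 and 3848 CPM in day 3 iECM hearts, against 601, 612, 570, 591 and 855 CPM in day 1 iECM hearts. Its log2 fold change was 3.00 (SE 0.24, edgeR adjusted p = 2.59e-08). In both rows replicate 1 was the lowest day 3 heart, and the spread was wider at day 3. In row 93 the highest day 3 heart was 2.38 times the lowest, against 1.44 times at day 1.

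Row 310 fell most, with 1104, 2532, 2433, 3360 and 1859 CPM in day 3 iECM hearts, against 23839, 16391, 26311, 13370 and 31207 CPM in day 1 iECM hearts. Even the highest day 3 heart was well below the lowest day 1 heart. The log2 fold change was -3.30 (SE 0.32, edgeR adjusted p = 2.45e-07), a 9.84-fold fall with a 95% interval of 6.22 to 15.6. Here too replicate 1 was the lowest day 3 heart, so in this row it lay farthest from day 1.

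Row 340 had 12.2, 23.0, 12.7, 25.7 and 24.4 CPM in day 3 iECM hearts, against 116, 104, 108, 54.4 and 298 CPM in day 1 iECM hearts. Its log2 fold change was -2.78 (SE 0.55, edgeR adjusted p = 5.08e-04). The raw counts at day 3 were 13, 39, 20, 36 and 40, and 2 of these 5 hearts were at or below background, so the size of the fall is less sure than in the other rows. Without day 1 replicate 5, the heart with 298 CPM, it fell by 2.27. No left-out heart changed the call of any of the 4 rows.

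**Figure D3:**
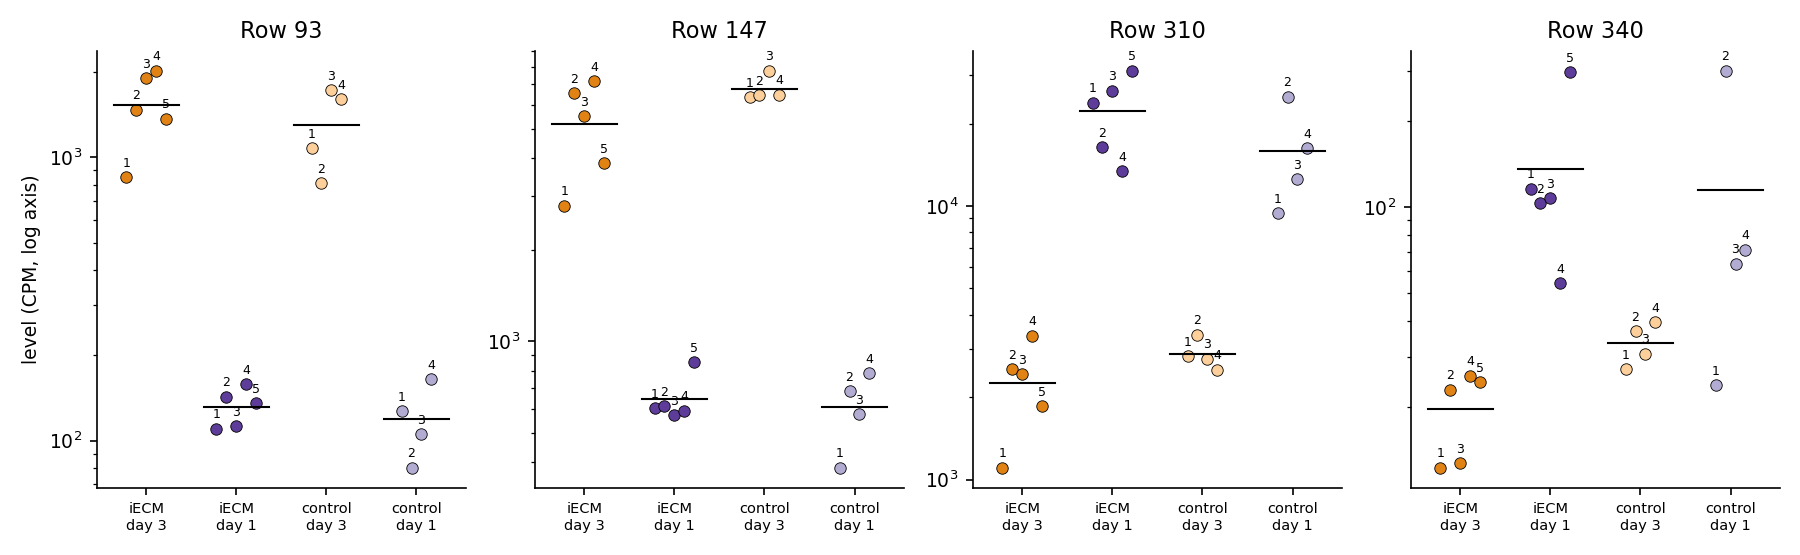
Level in CPM (log axis) of the 4 named rows in each heart of the 4 groups, with the replicate number and the group mean (line). In iECM hearts the 2 days do not overlap in any of the 4 rows, which the rule for naming rows required. Day 3 replicate 1 is the lowest day 3 heart in each.

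Full separation of the hearts was rarer than a call. In 96 of 371 probes (25.9%) all 5 day 3 hearts lay on one side of all 5 day 1 hearts, 47 above and 49 below, and 93 of these 96 were called. The other 61 called probes overlapped, 25 of them rising and 36 falling. Without day 3 replicate 1, 72 probes lay entirely above and 63 entirely below the day 1 hearts, and 24 of the 61 overlapping called probes no longer overlapped. Separation of 4 hearts from 5 is the easier condition.

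The spread between hearts was wider at day 3 than at day 1 with replicate 1 of day 3 and narrower without it. The SD of log2 CPM within a group had a median over probes of 0.27 at day 3 and 0.24 at day 1, and it was larger at day 3 in 233 of 371 probes. Without day 3 replicate 1 the day 3 median was 0.21, and 156 probes had the larger SD at day 3. At day 3 the probes that rose spread most, with a median SD of 0.36, against 0.27 for those not called and 0.22 for those that fell. At day 1 these medians were 0.24, 0.24 and 0.20. Without day 3 replicate 1 the day 3 medians were 0.23 for the rising, 0.22 for the uncalled and 0.17 for the falling probes. These figures are descriptions over probes, and no test was made of them.

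Probes of middle level held the largest share of calls. The probes were divided by mean level into a low, a middle and a high class of nearly equal size. In the low class, 8.25 to 111 CPM, 17 rose and 25 fell of 124. In the middle class, up to 685 CPM, 35 rose and 29 fell of 123. In the high class 20 rose and 28 fell of 124. The median SE of the log2 fold change was 0.22 in the low, 0.15 in the middle and 0.14 in the high class, so a change of a given size was harder to call at low level.

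The median log2 fold change was -0.27 in the low class, 0.10 in the middle and -0.07 in the high class. The low class holds all 34 probes that did not exceed background in any of the 10 iECM hearts. Their median raw count was 13 at day 3 and 13 at day 1, yet their median log2 fold change was -0.42 after scaling, and 29 of the 34 had a negative value. Of these 34 probes 6 were called, and all 6 fell. The gene totals were on average 31.7% higher at day 3 before TMM adjustment. The scaling divides by the library size multiplied by a TMM factor. That factor was 0.97, 1.08, 1.06, 1.10 and 0.98 in day 3 iECM hearts, replicates 1 to 5. In day 1 iECM hearts it was 0.92, 0.90, 0.93, 1.06 and 1.06. Leaving the 34 aside, 72 probes rose and 76 fell.

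The calls made up a modest part of all counts. The 72 rising probes took 10.0% ± 2.57 of the gene count in day 3 iECM hearts and 4.56% ± 0.48 in day 1 iECM hearts (SD, n = 5 each). The 82 falling probes took 17.5% ± 0.60 in day 3 iECM hearts, against 26.7% ± 0.97 in day 1 iECM hearts (SD, 5 hearts each). The falling probes thus held the larger share of the count on both days. These shares were computed on probes chosen by the same comparison and carry no test. Before any scaling, 299 probes had a higher mean raw count at day 3 and 70 a lower one. The 10 probes with the largest gains made up 61.5% of the net gain in gene count.

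The uncalled probes were mostly bounded. Of 217 not called, 183 had a 95% interval of the fold change that stayed within 2-fold up or down. The other 34 had wider or displaced intervals, and 11 of them did not exceed background in any iECM heart. For the 183, a change of 2-fold or more lies outside the interval under this scaling. For the others this number of hearts could not show it. The intervals use an SE taken from the F statistic, which can be too small at low counts. In a probe of the low class the interval was -0.85 to -0.0035 on the log2 scale, although its unadjusted edgeR p was 0.0667. The count of 183 may thus be too high among low-level probes.

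How many probes rose against fell depended on the scaling. All gene probes entered 6 scalings, which were TMM, relative log expression, upper quartile, a common median, the total gene count and quantile normalization with limma. The called probes were 89 rising and 70 falling with relative log expression (56.0% rising), 83 and 58 with the total gene count (58.9%), 70 and 97 with a common median (41.9%), and 68 and 91 with quantile normalization (42.8%). Upper quartile scaling gave 55 rising and 163 falling probes (25.2% rising). Among these 6 scalings the median of all probes lay between -0.37, with the upper quartile, and 0.01, with the total gene count.

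The calls shared by all 6 were 55 rising and 45 falling probes. No probe was called in opposite directions by any 2 of the 6. Their medians lay close together, and the smallest calls by TMM were 0.33 and -0.22, so opposite calls were hardly possible among them. The lack of such calls therefore does not show that the direction of a probe is free of the scaling. Over all 9 scalings used here, 72 probes were called in opposite directions. Whether more probes rose than fell in iECM hearts at day 3 against day 1 is thus a matter of the scaling.

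The last 6 rows stand after the control rows in the value table, and the files do not say what they are. Scaling the hearts on them gave 64 rising and 114 falling probes (36% rising), with the median of all probes at -0.24. These 6 rows were themselves not level between the days. By TMM scaling 2 rose, by 2.26 (SE 0.25, edgeR adjusted p = 1.42e-06) and 0.43 (SE 0.15, edgeR adjusted p = 0.0242), and 2 fell, by 0.48 and 1.07, all on the log2 scale. The other 2 had log2 fold changes of -0.03 and -0.10 and were not called. The 6 rows together held 62879 ± 17065 counts (SD, n = 5) in day 3 iECM hearts and 40512 ± 8775 (SD, n = 5) in day 1 iECM hearts (exact permutation p = 0.0397, adjusted p = 0.111). Without day 3 replicate 1 the difference was 29675 counts (exact permutation p = 0.0159, adjusted p = 0.0476). As CPM of the gene count, the 6 rows held 43966 in day 3 iECM hearts and 37643 in day 1 iECM hearts, a difference that did not pass the test (exact permutation p = 0.206, adjusted p = 0.248).

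The balance changed most when hearts were put on a scale outside the gene probes. Scaled on the 6 positive-control rows, 268 probes rose and 3 fell in iECM hearts (98.9% rising), and the median of all probes stood at 1.02 on the log2 scale. With the counts as deposited and no scaling, 142 rose and 15 fell (90.4% rising), and the median was 0.42. All 72 probes that rose by TMM also rose on the positive-control scale, together with 181 that TMM did not call. Of the 82 that fell by TMM, 3 also fell on that scale, 64 were not called and 15 rose. A fall by TMM is thus a fall relative to the other probes.

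**Figure D4:**
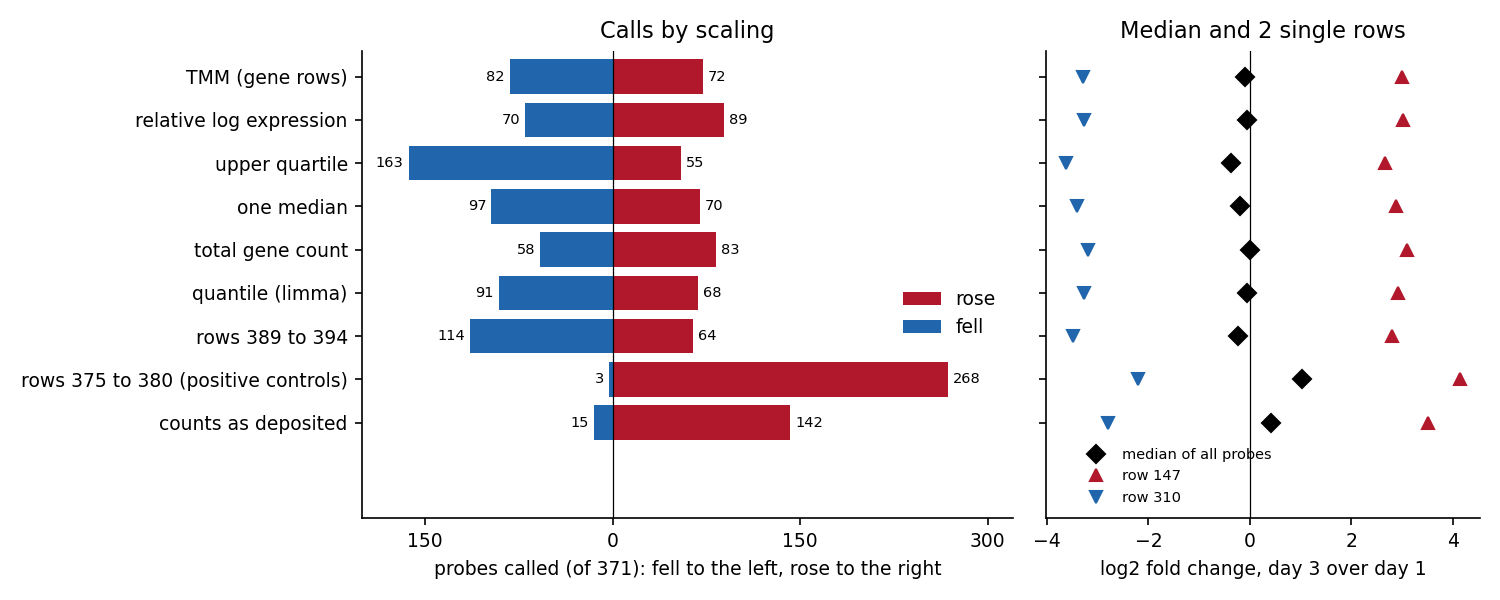
Left: probes called rising (right of 0) and falling (left of 0) in iECM hearts, day 3 against day 1, of 371, under 9 scalings. Right: log2 fold change of the median of all probes and of rows 147 and 310 under the same scalings, where the median runs from -0.37 to 1.02.

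The positive-control scale rests on rows whose sum was lower at day 3, and between 50 and 100 ng of RNA went into each reaction. The RNA amount of each heart is not given in the labels. Whether the common shift is in the hearts or in the assay was not tested.

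Scalings that use 1 factor per heart shift all probes nearly alike, so values taken relative to the median of all probes can hardly differ between them. Quantile normalization is the scaling here that can reshape them. Relative to the median, row 93 stood at 3.62 by TMM and 3.31 by quantile normalization, row 147 at 3.09 and 2.98, row 310 at -3.21 and -3.21, and row 340 at -2.69 and -2.60. By TMM 41 probes were over 2-fold above the median and 20 over 2-fold below it, against 29 and 23 by quantile normalization. The TMM values were fitted with edgeR and the quantile values with limma. TMM was also fitted with limma-trend, where the median of all probes was -0.10, against -0.05 by quantile normalization. Not taken relative to the median, row 93 stood at 3.47 in that fit and 3.26 by quantile normalization. Row 147 stood at 2.93 and 2.92, row 310 at -3.32 and -3.26, and row 340 at -2.54 and -2.65. The counts past 2-fold were not made for that fit, so for them scaling and tool cannot be told apart. How far large rises outnumber large falls thus depended on this joint choice too. Across all 9 scalings, 55 probes were called rising and 3 falling, and 72 were called rising by one scaling and falling by another.

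The same day comparison in control hearts called 169 of 371 probes (45.6%). Whether the day effect differed between the agents was tested as an interaction in the same edgeR fit, and 0 probes were called (0% of 371). At an unadjusted threshold of 0.05 there were 10 probes, and the lowest adjusted p was 0.928. The count was 0 by DESeq2 and by limma as well. The 95% interval of the difference lay inside 2-fold for 271 probes and did not for 100, and these intervals too can be too narrow at low counts. Of the 154 probes called in iECM hearts, 118 had such a bounded difference.

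The probes called in iECM hearts can be read in control hearts, which are other samples. Of the 72 that rose, all 72 had a positive log2 fold change in control hearts, with a median of 0.94 in iECM hearts and 0.98 in control hearts. Of the 82 that fell, 81 had a negative one, with a median of -0.62 in iECM hearts and -0.48 in control hearts. The remaining probe stood at 0.14 in control hearts. The share of agreeing signs over all 371 probes was not counted, and both comparisons share the same fit and scaling. The agreement is therefore not shown to be particular to the called probes. The choice of probes on the iECM values favours larger sizes there. Of the 154, 35 were not called in control hearts. Their median absolute log2 fold change was 0.55 in iECM hearts and 0.28 in control hearts, and the interaction was called for 0 of the 371 probes, so these 35 are not shown to be particular to iECM hearts.

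The fitted change of each of the 4 named rows had the same direction in both agents. These rows were chosen as the largest changes in iECM hearts, which favours larger sizes there. Row 310 had a log2 fold change of -3.30 in iECM hearts and -2.46 in control hearts, a difference of -0.84 with a 95% interval of -1.75 to 0.07 (edgeR adjusted p = 0.928). Row 147 had 3.00 in iECM hearts and 3.47 in control hearts, a difference of -0.47 with an interval of -1.18 to 0.23 (edgeR adjusted p = 0.928). Row 93 differed by 0.09, with an interval of -0.69 to 0.87 (edgeR adjusted p = 0.955). In control hearts row 340 had a log2 fold change of -1.79 (edgeR adjusted p = 0.0216), but there the days overlapped. It had 27.1, 36.8, 30.7 and 39.7 CPM in day 3 control hearts, against 23.9, 301, 63.5 and 71.2 CPM in day 1 control hearts. Row 340 differed by -0.99, with an interval of -2.66 to 0.67 (edgeR adjusted p = 0.928). Its interval would hold a difference of over 4-fold, the widest of the 4.

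**Figure D5:**
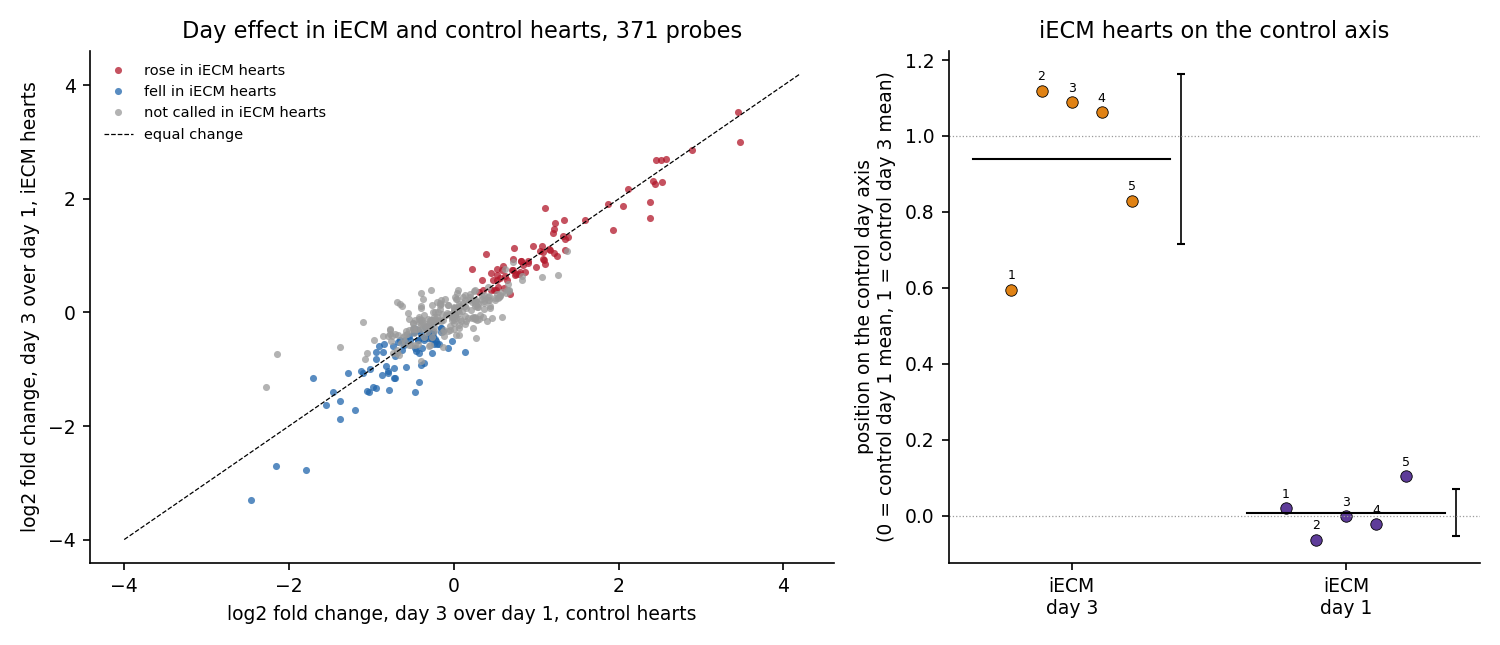
Left: log2 fold change, day 3 over day 1, of 371 probes in iECM hearts (vertical) against control hearts (horizontal), coloured by the call in iECM hearts, with the line of equal change dashed. Right: position of each iECM heart on the axis from the control day 1 mean (0) to the control day 3 mean (1), with the mean (line) and SD (bar, n = 5), where day 3 replicate 1 lies lowest of its group at 0.60.

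The control hearts also gave a scale on which to place single iECM hearts, with its 2 end points taken from control hearts only. The filter and the TMM scaling behind it used all 18 hearts. The difference between the mean log2 CPM of control hearts at the 2 days defined an axis over all 371 probes, with the control day 1 mean at 0 and the control day 3 mean at 1. Day 3 iECM hearts lay at 0.60, 1.12, 1.09, 1.06 and 0.83, replicates 1 to 5, and day 1 iECM hearts at 0.02, -0.06, -0.00027, -0.02 and 0.10. So 3 of the 5 day 3 hearts were just past the control day 3 mean, and replicates 5 and 1 fell short of it. Each iECM heart lay nearer to the control mean of its own day.

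The shortfall of replicate 1 can be split by direction on probes called in control hearts. It is not one of the control hearts, but it entered the filter, scaling and spread estimate of the shared fit. Over the 93 probes that rose there, its median log2 difference from the day 1 iECM mean was 0.27, against 0.98, 0.95, 1.02 and 0.67 in day 3 replicates 2 to 5. Over the 76 that fell there, it was -0.37, against -0.68, -0.62, -0.63 and -0.48. Day 1 hearts lay between -0.07 and 0.17 over the first set and between -0.09 and 0.10 over the second. On these sets replicate 1 had the smallest rise and the smallest fall of the day 3 hearts, with both still outside the range of the day 1 hearts. The sets are thus not independent of replicate 1, and without it 193 probes were called in control hearts, against 169 with it. In the 72 and 82 probes called in iECM hearts, its own values also entered the fold change. There the rise of replicate 1 was again the smallest, at 0.51 against 0.83 to 1.25. The fall was not, at -0.60 against -0.66, -0.68, -0.57 and -0.66 in replicates 2 to 5.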

How the data were processed

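Total RNA from infarcted left ventricular free wall was hybridized to a reporter and capture probe set, per the labels' protocols. The authors' deposited value table holds whole-number counts per numbered row, read as raw counts because totals differ between samples. The readout software was not given in these sources. Other deposited tables of the authors compare iECM with control and were not used. Rows 375 to 380 (positive) and 381 to 388 (negative) were read as controls from their values, and rows 1 to 374 and 389 to 394 as gene probes. Among 153 sample pairs none was identical.

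As the values are counts, they were fitted in edgeR 4.0.16: filterByExpr (minimum count 10, keeping 371 of 380 probes), TMM and the quasi-likelihood test on 4 group means of all 18 samples, with 14 residual degrees of freedom, and Benjamini-Hochberg adjustment at 0.05. An SE is the log2 fold change divided by the root of the F statistic. Log2 CPM used a prior count of 2. Single values per heart were compared by exact permutation tests in scipy 1.17.1, adjusted over 6. Alternatives used limma 3.58.1 and DESeq2 1.42.0. The fit was tested on simulated data. The probes and comparisons were chosen with earlier results of these data known. The rule for named rows took, among called probes whose 2 iECM groups do not overlap, the 2 highest and the 2 lowest log2 fold changes.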

Additional observations from a re-analysis of the deposited data

Results flagged for a closer look

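In the 5 iECM hearts of each day, 26 sets of values were searched for a heart far from the other 4, and 3 were past Dixon's limit of 0.710 for the gap over the range. Chance flags about 1 in 20 such sets. Day 3 replicate 1 had 33645 counts in the last 6 rows of the value table, a gap of 0.727 of the range below the other day 3 hearts, which had 66232 to 78494. Day 1 replicate 5 had 855 CPM in row 147, a gap of 0.852 of the range above the other day 1 hearts. The same heart had 298 CPM in row 340, a gap of 0.746 of the range.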

How the results depend on the processing

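No paired analysis was possible because no label numbers the replicates, and accession order pairs nothing. The alternatives were listed with earlier results of these data known. Falling probes, 82 by TMM, numbered 163 with upper quartile scaling, 3 on the positive-control rows and 15 with unscaled counts. Rising probes, 72 by TMM, numbered 268 on the positive-control rows and 142 with unscaled counts, and all called probes, 154 by TMM, numbered 271 on the positive-control rows. Under the other alternatives these counts stayed within 1.5 times. DESeq2 called 99 rising and 75 falling probes (56.9% rising), and counts raised to background gave 91 and 114. Leaving out 1 of 18 hearts gave 63 to 85 rising, 67 to 108 falling and 131 to 193 called probes. The count of 0 for the interaction was 0 under each of 16 alternatives and each left-out heart, and the 4 named rows kept their call and direction under 17. In control hearts, leaving out a heart gave 121 to 193 called probes. The gene total divided by the geometric mean of the positive-control rows differed by 541.7 between day 3, at 1084, and day 1, at 542.5 (exact permutation p = 0.00794, adjusted p = 0.0238). Probes above background differed by 13.4 with a limit of 3 SD (exact permutation p = 0.0159, adjusted p = 0.0476) and by 5.2 with a fixed minimum of 20 counts (exact permutation p = 0.278, adjusted p = 0.333). The share of the top probes turned to -1.31 percentage points with 20 probes, and leaving out a heart gave -1.23 to 1.47 (-0.12 without day 3 replicate 5, -0.54 without day 1 replicate 5). For the positive-control sum, leaving out a heart gave differences from -27177.9 to -21587.9 counts, and in 9 of 10 cases the adjusted p was 0.0952, where 4 hearts against 5 allow no p below 0.0159. For the last 6 rows it gave 18463 to 29675 counts, and as CPM they differed by 6323 (exact permutation p = 0.206, adjusted p = 0.248). The cause of these changes was not tested. Depth limits probes near background, where a fold says little.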
